A study of Mus musculus with 12 samples.

Results

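Interferon beta (Ifnb1) and 8 interferon regulatory factors (Irf1, Irf2, Irf3, Irf4, Irf5, Irf7, Irf8 and Irf9) were followed in newly made and in total RNA of mouse macrophages after lipopolysaccharide (LPS). They are taken by gene symbol, each through the probe set of highest mean signal, and all 9 were found among the 19938 genes tested. Macrophages grown from the bone marrow of C3H/HeN mice were left unstimulated or given 100 ng/ml LPS, a bacterial outer membrane component, for 45 or 270 min. All cultures, the unstimulated ones included, received 200 µM 4-thiouridine in the last 35 min. This uridine analogue marks RNA made in that window, which was purified as nascent RNA, and total RNA is the RNA of the same culture before purification. Each of the 6 groups held 1 array from each of 2 independent experiments, with 100 ng of nascent or 200 ng of total RNA per amplification.

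Interferon beta is the type I interferon that macrophages secrete when Toll-like receptor 4 (TLR4) senses LPS. TLR4 signals through the adaptor TRIF to the kinase TBK1, which phosphorylates the factor IRF3, and IRF3 acts with NF-kB and AP-1 proteins on the Ifnb1 promoter. Secreted interferon beta signals back through its receptor to ISGF3, a complex that contains IRF9 and STAT2 and switches on antiviral genes and Irf7. Of the other factors, IRF1 activates many interferon and inflammatory genes, IRF2 is best known for countering it, IRF5 acts below the adaptor MyD88, and IRF4 and IRF8 are factors of lymphoid and myeloid cells that bind DNA with partners such as PU.1.

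The promoters of 3 members are shown because these genes followed different courses over time and carry motifs of the factors above. Each line is the 250 bases before the RefSeq start site, read 5′ to 3′ on the gene's strand, from RefSeq (GRCm38.p6). That build is of the strain C57BL/6J, while the cells were C3H/HeN. The Ifnb1 window lies at chr4:88522795-88523044 on the minus strand, that of Irf1 at chr11:53769764-53770013 and that of Irf2 at chr8:46739495-46739744, both on the plus strand. Capitals mark matches to the motifs named below.
Ifnb1: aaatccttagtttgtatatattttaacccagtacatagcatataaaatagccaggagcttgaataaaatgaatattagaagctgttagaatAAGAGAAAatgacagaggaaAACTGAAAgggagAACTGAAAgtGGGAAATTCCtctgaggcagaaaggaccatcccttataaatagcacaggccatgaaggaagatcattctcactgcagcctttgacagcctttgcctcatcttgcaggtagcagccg
Irf1: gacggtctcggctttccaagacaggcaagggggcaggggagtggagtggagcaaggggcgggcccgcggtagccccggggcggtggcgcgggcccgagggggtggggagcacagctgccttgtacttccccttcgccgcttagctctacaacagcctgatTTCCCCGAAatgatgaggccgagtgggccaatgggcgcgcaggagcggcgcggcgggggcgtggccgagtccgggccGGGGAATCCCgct
Irf2: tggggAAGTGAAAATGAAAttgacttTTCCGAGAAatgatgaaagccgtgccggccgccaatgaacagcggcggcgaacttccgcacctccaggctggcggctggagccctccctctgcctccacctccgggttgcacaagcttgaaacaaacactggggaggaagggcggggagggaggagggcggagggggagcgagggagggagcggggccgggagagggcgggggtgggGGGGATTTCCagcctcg

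The motifs were searched on both strands of the 250 bases before each RefSeq start, also at a second start where a gene has one. AANNGAAA, the core bound by IRF proteins, occurred in 21.3% of 32851 promoters, and the double core of interferon response elements, a GAAA followed after 2 bases by another GAAA, which can overlap it, in 2.98%. TTCNNNGAA, the element bound by STAT dimers, occurred in 7.02% and the NF-kB consensus in 3.9%. The Ifnb1 window held 3 matches to AANNGAAA, the nearest at -126 to -119 from the start, and 1 to the NF-kB consensus at -116 to -107. The printed Irf1 window held a TTCNNNGAA match at -90 to -82 and an NF-kB match at -13 to -4, and no match to either IRF motif. The Irf2 window held all 4 motifs, with the double core at -241 to -232. Irf8 had 2 TTCNNNGAA matches before 1 of its 2 starts. None of the 4 motifs matched in the windows of Irf3, Irf4, Irf5, Irf7 and Irf9. A match describes these letters only.

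All values below are log2 intensities or log2 differences (± SE from limma), with n = 2 arrays per group, and a gene is called at a Benjamini-Hochberg adjusted p under 0.05. Levels on an array are compared between groups and not between genes. The 2 arrays of a group correlated at r = 0.956 to 0.981 across probe sets, and the interquartile range of the arrays' log2 values was 2.42 to 3.06. A background level was set on each array at the 95th percentile of 1027 olfactory receptor genes, which gave 6.18 to 6.80. All 8 macrophage markers, such as Cd68 and Csf1r, were above it on all 12 arrays, and all 6 B cell markers were under it on all 12. The unstimulated nascent arrays differed between the experiments by at least 0.7 for 6.04% of all genes, and 6 of the members were among them. Experiment 2 was higher there by 0.77 for Irf3, 0.74 for Irf5, 1.48 for Irf7, 1.12 for Irf8 and 0.72 for Irf9, and differed by -0.90 for Irf4. In bulk RNA, fewer cells of a type and less RNA per cell cannot be told apart.

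**Figure D1:**
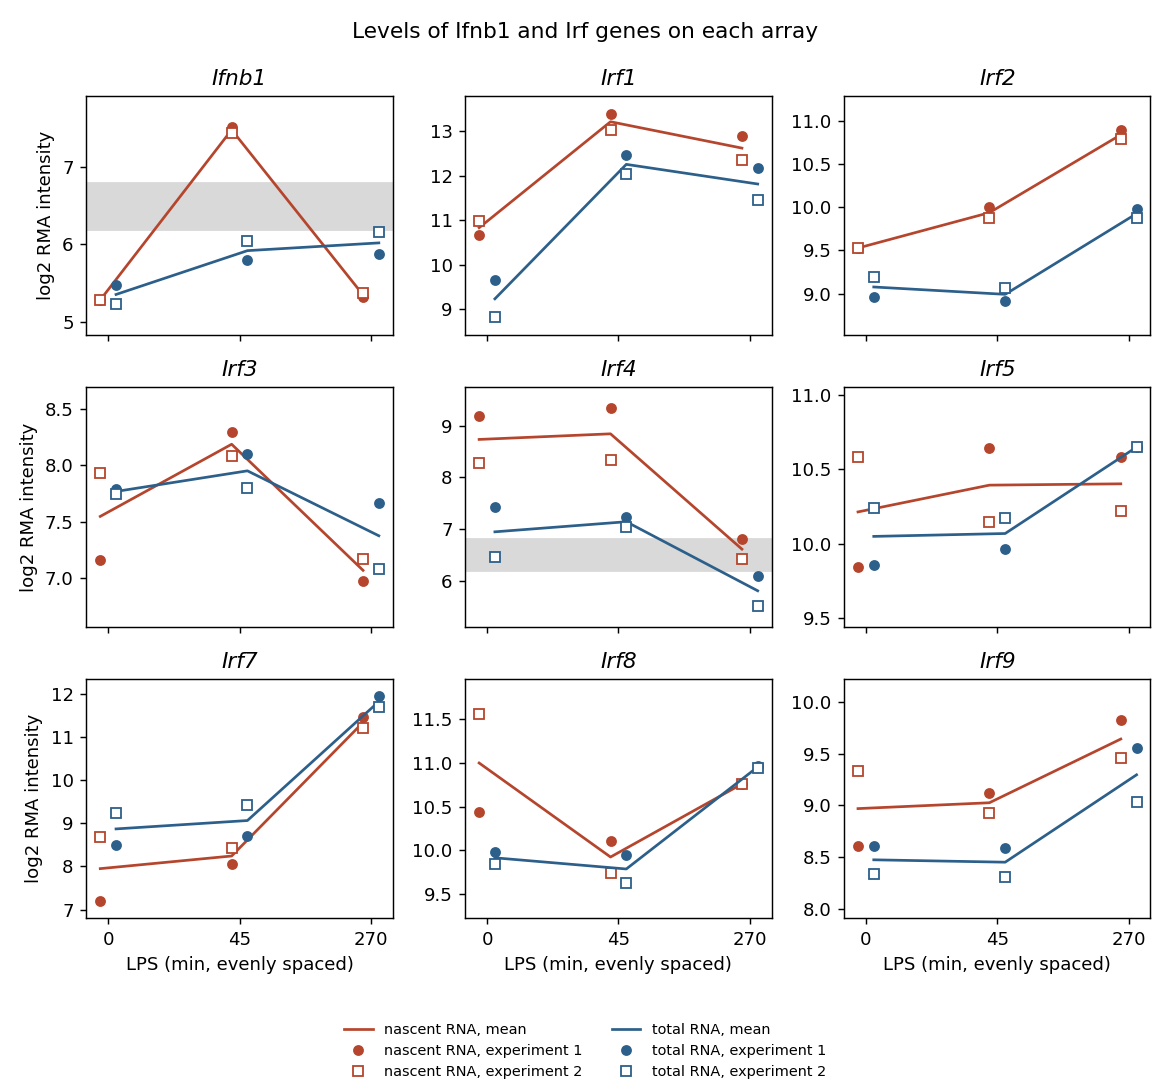
The y axis is the log2 RMA intensity of each gene and the x axis the time with LPS in min, evenly spaced. Filled circles are arrays of experiment 1, open squares arrays of experiment 2, lines group means, red nascent and blue total RNA, and the grey band spans the background level of the 12 arrays (6.18 to 6.80), drawn for genes that reach it. Ifnb1 is above the band only in nascent RNA at 45 min, and Irf7 is highest at 270 min in both kinds of RNA.

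After 45 min of LPS, Ifnb1 and Irf1 rose in nascent RNA. Irf8 fell, in a call that was lost when certain single arrays were left out. Ifnb1 was back under the background level at 270 min, Irf1 was still raised, Irf2 and Irf7 had risen, and Irf4 had fallen. In total RNA, Irf1 was the 1 member called at 45 min, and Irf7, Irf1, Irf8, Irf2 and Irf9 were higher at 270 min. The calls of Irf8, Irf2 and Irf9 at 270 min were also lost without certain single arrays.

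In nascent RNA, 2 of 9 members were called higher and 1 lower at 45 min against 0 min, where 8.93% of all genes were called, 3.05% higher and 5.88% lower. At 270 min against 0 min, 3 of 9 were called higher and 1 lower, beside 23.0% of all genes, 8.87% higher and 14.2% lower. From 45 to 270 min, 2 of 9 were called higher and 3 lower, beside 16.8% of all genes, 6.74% higher and 10.0% lower. In total RNA at 45 min against 0 min, 1 of 9 was called higher and none lower, beside 0.682% of all genes, 0.662% higher and 0.0201% lower. At 270 min against 0 min, 6 of 9 were called higher and none lower, beside 19.0% of all genes, 7.02% higher and the rest lower. Ifnb1, under background at both times, is 1 of these 6. From 45 to 270 min in total RNA, 4 of 9 were called higher and 1 lower, beside 18.2% of all genes, 6.64% higher and 11.5% lower. Each share of members rests on 9 genes. By limma's unadjusted p under 0.05, 2 of the 9 members passed in total RNA at 45 min, beside 3.05% of all genes, and 8 at 270 min, beside 29.7%. The median difference of the 9 members at 270 min was 0.19 in nascent RNA, beside 0.12 over all genes, and 0.82 in total RNA, beside 0.07.

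Ifnb1, the cytokine itself, gave a transient nascent signal. Its nascent log2 intensity was 5.29 and 5.28 in unstimulated cells, 7.52 and 7.44 at 45 min, and 5.32 and 5.38 at 270 min. Both 45 min arrays stood above all other nascent arrays, and those of 0 and 270 min all lay under background. The fitted rise at 45 min was 2.20 ± 0.16 (adjusted p = 1.71e-06), and against the background level Ifnb1 was at least 2.26-fold higher. The fall from 45 to 270 min was -2.13 ± 0.16 (adjusted p = 5.99e-07), at least 1.70-fold. Total RNA gave 5.48 and 5.23 at 0 min, 5.79 and 6.04 at 45 min, and 5.87 and 6.17 at 270 min. All 6 of those arrays lay under background, so no fold is given. The fit did call the total RNA difference at 270 min (0.67 ± 0.16, adjusted p = 0.0098). That call was lost when the unstimulated (adjusted p = 0.113) or the 270 min total array (adjusted p = 0.0971) of experiment 2 was left out, in an adjusted p range of 0.0068 to 0.113.

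Of 15 other interferon genes measured, among them Ifng, Ifnk and Ifna4, limma called none at 45 min in nascent or total RNA. By unadjusted p under 0.05, 1 of the 15 passed in nascent RNA, beside 23.0% of all genes, and 0 in total RNA, beside 3.05%. At 270 min Ifnk was called in nascent RNA (0.91 ± 0.25) and Ifna16 in total RNA (0.97 ± 0.23), both under background on all arrays compared. The nascent count was 0 when experiment 2 lacked its unstimulated array, or experiment 1 its 270 min array. The total count was 0 when experiment 1 lacked its unstimulated array, or experiment 2 its 270 min array. It was 3 when experiment 1 lacked its 270 min array, and 2 with the experiment as a replicate block or with arrays centred on the median. With dim genes left out, 0 were called in either. In each comparison, 10 of the 15 were under background on all arrays of both groups. Members of the Ifna family have closely similar sequences and may share probe signal.

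Irf1, the early activator, was the member that rose at 45 min in both kinds of RNA. In nascent RNA it was 10.67 and 10.99 at 0 min, 13.40 and 13.03 at 45 min, and 12.90 and 12.34 at 270 min. In total RNA it was 9.65 and 8.82, then 12.46 and 12.05, then 12.18 and 11.45. Every stimulated array stood above the unstimulated arrays of its kind. The rise at 45 min was 2.38 ± 0.31 in nascent (5.21-fold, adjusted p = 0.00027) and 3.02 ± 0.31 in total RNA (8.12-fold, adjusted p = 7.77e-05). At 270 min it was 1.79 ± 0.31 and 2.58 ± 0.31 (adjusted p = 0.000649 and 3.87e-05). The changes from 45 to 270 min, -0.59 ± 0.31 in nascent and -0.44 ± 0.31 in total RNA, were not called. A dimmer Irf1 probe set read 7.37 and 6.86 at 0 min and 9.37 and 9.22 at 45 min in nascent RNA. In total RNA it read 6.63 and 6.77, then 7.58 and 7.94, a rise of 1.06 that was not called (adjusted p = 0.107, in a range of 3.15e-07 to 0.107 over the alternatives).

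Irf2, the counterpart of Irf1, was called at 270 min and not at 45 min. Its nascent values were 9.52 and 9.53 at 0 min, 10.00 and 9.87 at 45 min, and 10.89 and 10.79 at 270 min. The 3 nascent groups did not overlap. The 45 min difference of 0.41 ± 0.19 was not called (adjusted p = 0.206), while that at 270 min was 1.31 ± 0.19 (2.48-fold, adjusted p = 0.000129). Total RNA gave 8.96 and 9.19, then 8.92 and 9.06, then 9.98 and 9.87. The 2 early groups overlapped and both 270 min arrays were above them, by 0.85 ± 0.19 over unstimulated cells (adjusted p = 0.00472). Without the unstimulated total array of experiment 1 that value was 0.74 and not called (adjusted p = 0.0632, range 0.00143 to 0.0632).

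Irf3, the factor that TBK1 activates, was not called against unstimulated cells in either kind of RNA. Its nascent values were 7.16 and 7.93 at 0 min, 8.29 and 8.08 at 45 min, and 6.97 and 7.17 at 270 min. The unstimulated arrays were 0.77 apart, and the 45 min arrays lay above both. From 45 to 270 min nascent Irf3 fell by 1.12 (SE 0.26, adjusted p = 0.00778), a call lost without the 45 min array (adjusted p = 0.0806) or the 270 min array (0.0742) of experiment 1, in a range of 0.0039 to 0.0806. The rise of 0.64 ± 0.26 at 45 min had an adjusted p of 0.162, and with quantile scaling it was 0.89 and called (adjusted p = 0.034, range 0.034 to 0.544). With the unstimulated nascent array of experiment 1 left out, the difference at 270 min was -0.86 and called (adjusted p = 0.0364, range 0.0364 to 0.882). In total RNA Irf3 ran from 7.09 to 8.10, with its lowest arrays at 270 min, and no difference was called.

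Irf5, the factor below MyD88, was called in none of the comparisons between times. Its nascent values were 9.84 and 10.58, then 10.64 and 10.15, then 10.58 and 10.22, and the groups overlapped. In total RNA the 270 min arrays, 10.65 and 10.65, stood above the 4 others, which ran from 9.86 to 10.24. That difference, 0.60 ± 0.26, had an adjusted p of 0.143.

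Irf7, which ISGF3 and IRF7 itself switch on, had the largest rise of the 9 members at 270 min. In nascent RNA it was 7.20 and 8.69 at 0 min, 8.05 and 8.43 at 45 min, and 11.46 and 11.20 at 270 min. In total RNA it was 8.49 and 9.24, then 8.70 and 9.42, then 11.94 and 11.69. The 0 and 45 min groups overlapped in both, and every 270 min array was more than 2 log2 units above them. The rise at 270 min was 3.39 ± 0.40 in nascent (10.5-fold, adjusted p = 2.96e-05) and 2.95 ± 0.40 in total RNA (7.72-fold, adjusted p = 0.000135). By experiment the nascent rise was 4.26 and 2.51, against the unstimulated arrays that differed by 1.48. At 45 min the differences were 0.29 ± 0.40 and 0.19 ± 0.40, and neither was called.

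Irf9, the DNA-binding subunit of ISGF3, showed a small late rise. Total RNA gave 8.61 and 8.34 at 0 min, 8.59 and 8.31 at 45 min, and 9.56 and 9.03 at 270 min. Both 270 min arrays were above the others, by 0.82 ± 0.27 over unstimulated cells (1.77-fold, adjusted p = 0.0488) and by 0.85 ± 0.27 over 45 min (adjusted p = 0.0445). Both calls lay near the threshold. The first was lost with centring on the median (adjusted p = 0.0628), in the fit of total RNA arrays alone (0.0559), and without either unstimulated array (0.086 and 0.234) or the 270 min array of experiment 1 (0.235), in a range of 0.0215 to 0.235. The second was lost with the same settings (0.0581 and 0.0523), and without either 45 min array (0.0752 and 0.219) or the 270 min array of experiment 1 (0.212), in a range of 0.0177 to 0.219. Nascent Irf9 was 8.61 and 9.33, then 9.12 and 8.93, then 9.83 and 9.46, and the rise of 0.67 ± 0.27 at 270 min was not called (adjusted p = 0.0913). It was called with quantile scaling (0.78, adjusted p = 0.0444) and without the unstimulated array of experiment 2 (1.04, adjusted p = 0.028), in a range of 0.028 to 0.424.

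Irf4, a factor of lymphocytes and of alternatively activated macrophages, fell late. In nascent RNA it was 9.19 and 8.28 at 0 min, 9.34 and 8.34 at 45 min, and 6.80 and 6.42 at 270 min. The groups at 0 and 45 min overlapped and both 270 min arrays were far below them, 1 of them under background. The fall was -2.12 ± 0.38 from 0 min (adjusted p = 0.00104) and -2.23 ± 0.38 from 45 min (adjusted p = 0.000816). Total RNA gave 7.43 and 6.46, then 7.24 and 7.04, then 6.09 and 5.51, with both 270 min arrays under background. Against 45 min, total Irf4 was called lower (-1.34 ± 0.38, adjusted p = 0.0266) and at least 1.58-fold lower against the background level. That call was lost without either 45 min array (adjusted p = 0.123 and 0.08 for experiments 1 and 2) or the second 270 min array (0.192), in a range of 0.000236 to 0.192. Against 0 min the difference of -1.14 ± 0.38 was not called (adjusted p = 0.0542). It was called with the experiment as a replicate block (adjusted p = 0.000843), without dim genes (0.0427), in total RNA arrays alone (0.0399), and without the unstimulated array of experiment 2 (0.0173) or that of 270 min in experiment 1 (0.0414), in a range of 0.000843 to 0.407.

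Irf4 was lower in experiment 2 than in experiment 1 in all 6 groups, by 0.19 to 1.00. The summed level of 6 mast cell and basophil markers went the other way and was higher in experiment 2 in all 6 groups. In unstimulated total RNA it was 8.70 in experiment 1 and 10.43 in experiment 2, and over all arrays it ran from 8.46 to 10.74. Of these markers, Kit was above background on all arrays and Cma1 under it on all. Their part in the result was not tested.

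Irf8, a factor of the macrophage lineage, was lower in nascent RNA at 45 min and higher in total RNA at 270 min. In nascent RNA it was 10.44 and 11.56 at 0 min, 10.11 and 9.74 at 45 min, and 10.76 and 10.75 at 270 min. Both 45 min arrays were below both unstimulated arrays, by 0.33 in experiment 1 and 1.82 in experiment 2. The fall at 45 min was -1.07 ± 0.29 (2.10-fold lower, adjusted p = 0.0344). Without the unstimulated array of experiment 2 it was -0.51 and not called (adjusted p = 0.371), and without the 45 min array of experiment 1 or 2 it was -1.26 or -0.89 and not called (0.0749 and 0.275), in a range of 0.00111 to 0.371. At 270 min the nascent difference from 0 min, -0.24 ± 0.29, was not called, and without the unstimulated array of experiment 1 it was -0.80 and called (adjusted p = 0.0264, range 0.0264 to 0.72). From 45 to 270 min the nascent rise of 0.83 ± 0.29 was not called (adjusted p = 0.0701) but was with the experiment as a replicate block (0.0381) and without dim genes (0.0497), in a range of 0.0381 to 0.351.

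In total RNA, Irf8 was 9.98 and 9.85 at 0 min, 9.95 and 9.63 at 45 min, and 10.96 and 10.94 at 270 min. Both 270 min arrays stood above the other 4, by 1.04 ± 0.29 over unstimulated cells (2.05-fold, adjusted p = 0.0219) and 1.16 ± 0.29 over 45 min (adjusted p = 0.0119). The first call was lost with quantile scaling (0.90, adjusted p = 0.0631) and without any one of the 4 arrays compared (adjusted p = 0.0633 and 0.102 without the unstimulated array of experiment 1 and 2, 0.0637 and 0.0825 without that of 270 min), in a range of 0.00869 to 0.102. The second was lost without the 45 min (0.0957) or the 270 min array (0.0538) of experiment 2, in a range of 0.00472 to 0.0957.

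Other cells in which Irf4, Irf7 and Irf8 are prominent were looked for by their markers. The summed level of 6 plasmacytoid dendritic cell markers was 10.51 to 10.72 in unstimulated total RNA and 11.60 to 11.91 at 270 min. Bst2, 1 of them, is itself induced by interferon, and Bst2, Tcf4 and Cox6a2 were above background on all arrays. Of 7 conventional dendritic cell markers, Flt3, Cd209a, Xcr1, Clec9a and Dpp4 were under background on all arrays and Itgax above it on all, with a sum of 10.48 to 10.67 in unstimulated and 10.63 to 10.85 in 270 min total RNA. The part of such cells in the results was not tested.

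**Figure D2:**
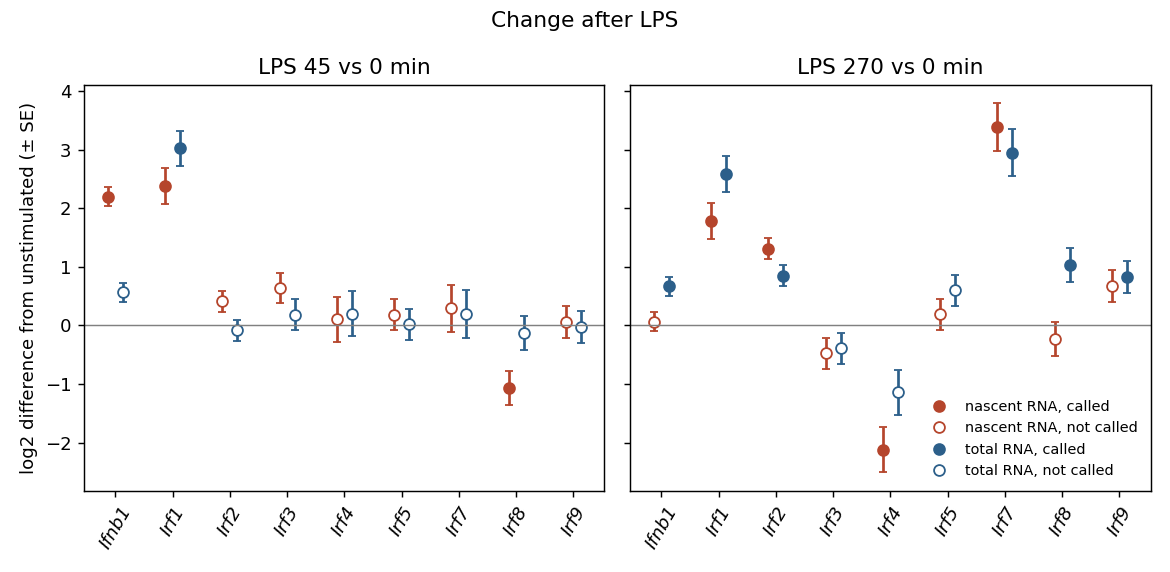
The y axis is the log2 difference from unstimulated cells, with limma's SE as error bars, for 45 min (left) and 270 min (right) of LPS. Filled points were called at an adjusted p under 0.05 and open points were not, with red for nascent and blue for total RNA. Irf1 is called in all 4 comparisons, and Irf7 reaches 3.39 and 2.95 at 270 min.

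Nascent was also set against total RNA of the same culture, as the difference of the 2 log2 values. Since both were scaled to other genes and entered at different RNA amounts, a value above 0 means more nascent signal relative to other genes, and not more molecules. In unstimulated cells 3 of 9 members were called higher in nascent RNA and 1 lower, beside 16.0% of all genes, 7.58% higher and 8.42% lower. At 45 min 4 were higher and 1 lower, beside 25.4% of all genes, 11.2% higher and 14.2% lower. At 270 min 3 were higher and 1 lower, beside 15.3% of all genes, 6.24% higher and 9.03% lower.

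Irf4 and Irf1 were called higher in nascent RNA at every time, Irf4 at 270 min with both total arrays and 1 of 2 nascent arrays under background. Irf4 was higher by 1.75 and 1.82 in the 2 unstimulated cultures, 2.11 and 1.30 at 45 min, and 0.70 and 0.91 at 270 min, with means of 1.79 ± 0.22, 1.70 ± 0.22 and 0.81 ± 0.22 (adjusted p = 1.14e-05, 8.04e-06 and 0.015). Irf1 was higher by 1.02 and 2.17, then 0.93 and 0.98, then 0.72 and 0.90, with means of 1.60 ± 0.20, 0.96 ± 0.20 and 0.81 ± 0.20 (adjusted p = 1.29e-05, 0.00111 and 0.00753). The dimmer Irf1 probe set gave 0.42 in unstimulated cells, which was not called (adjusted p = 0.348, the upper end of a range from 7.55e-32). Irf2 was called higher at 45 min (0.95 ± 0.20, adjusted p = 0.00106) and 270 min (0.91 ± 0.20, adjusted p = 0.00242) but not at 0 min (0.45 ± 0.20, adjusted p = 0.144). Ifnb1 was higher in nascent RNA at 45 min by 1.72 and 1.40 (mean 1.56 ± 0.19, adjusted p = 3.55e-06), with total RNA under background. At 270 min its difference of -0.67 ± 0.19 was called (adjusted p = 0.0171) with both kinds of RNA under background.

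Irf7 was the member that stood lower in nascent than in total RNA in unstimulated cells, by -1.29 and -0.55 (mean -0.92 ± 0.21, adjusted p = 0.00474). At 45 min it was -0.65 and -0.99 (mean -0.82 ± 0.21, adjusted p = 0.00729), and at 270 min -0.48 in both cultures (adjusted p = 0.161). Irf8 was higher in nascent RNA in unstimulated cells, by 0.45 in experiment 1 and 1.71 in experiment 2 (mean 1.08 ± 0.23, adjusted p = 0.00209), and without experiment 2 it was not called (adjusted p = 0.203, range 3.62e-12 to 0.203). Irf9 at 45 min was 0.58 ± 0.23 (adjusted p = 0.0754), called with the experiment as a replicate block (0.015, range 0.015 to 0.442). In unstimulated cells it was 0.50 ± 0.23 (adjusted p = 0.186), called without experiment 1 (0.00222, range 0.00222 to 0.998). Irf3 and Irf5 were called at no time.

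Some of these calls were lost with a culture left out or with 12 independent arrays. With a culture left out, fewer of all genes were called too. A lost call thus need not mean that the 2 cultures differed, and Irf2 at 270 min was 0.91 and 0.92 in them. Irf7 was not called at 0 min without experiment 1 (-0.55, adjusted p = 0.123), nor with 12 independent arrays at 0 min (0.192) and 45 min (0.164). At 45 min Irf1 and Irf7 lost the call without either culture (adjusted p = 0.0866 and 0.126 for Irf1, 0.0672 and 0.252 for Irf7), and Irf2 without that of experiment 1 (0.0746). At 270 min Ifnb1, Irf2 and Irf4 lost it without either culture (adjusted p = 0.102 and 0.308, 0.127 and 0.106, and 0.123 and 0.27), and Irf1 without that of experiment 2 (0.106). With 12 independent arrays, Irf1 (0.121) and Irf4 (0.236) lost it at 270 min. The lowest adjusted p of these values over the alternatives lay between 7.41e-09, for Irf1 at 45 min, and 0.00503, for Ifnb1 at 270 min.

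**Figure D3:**
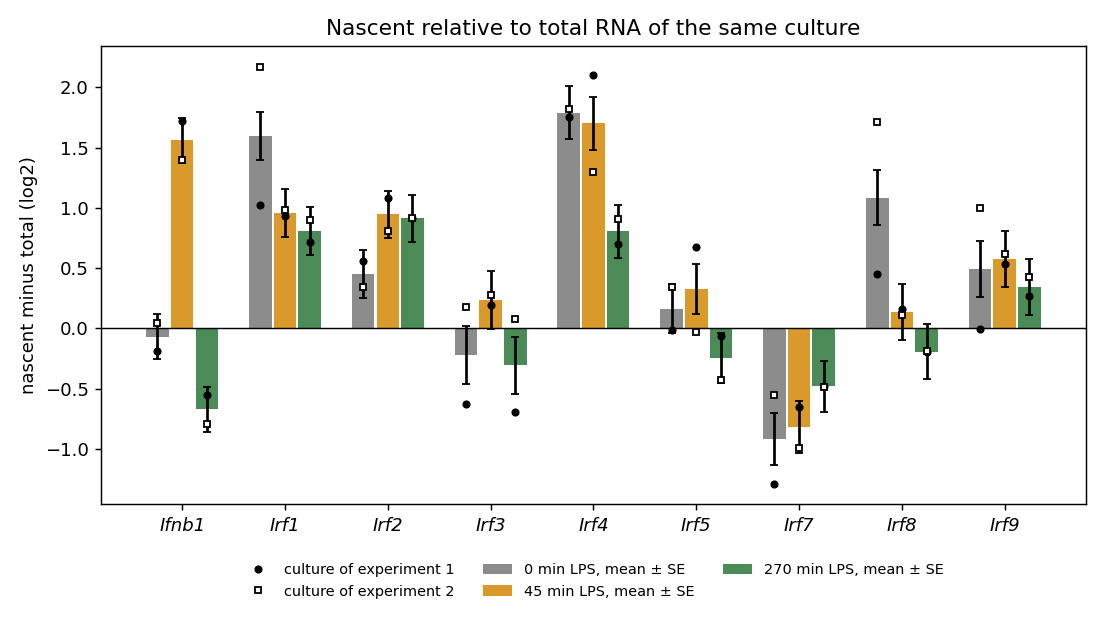
The y axis is nascent minus total log2 intensity within a culture. Bars are means of 2 cultures with limma's SE, in grey for 0, orange for 45 and green for 270 min of LPS, and symbols are the single cultures. Irf4 is above 0 in all 6 cultures and Irf7 below 0 in all 6, while Ifnb1 is above 0 mainly at 45 min (1.72 and 1.40).

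Whether a member responded differently in nascent and total RNA was tested on these within-culture differences. At 45 min 1 member was called higher in nascent RNA, beside 1.04% of all genes, 0.476% higher and 0.567% lower. This was Ifnb1, with a nascent response higher by 1.63 ± 0.26 (adjusted p = 0.00511). Its fitted response was 2.20 in nascent and 0.57 in total RNA, the second under background at both times. Without the 45 min culture of experiment 1 or 2 the difference was 1.47 or 1.79 and was not called. Those fits called hardly any gene at all, so the lost call says little about Ifnb1. At 270 min no member was called by limma, beside 0.843% of all genes, 0.120% higher and 0.722% lower, and 4 of the 9 had an unadjusted p under 0.05, beside 7.08% of all genes.

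The block by experiment, which fits 1 common gap between the experiments over all times, changed this result. For Irf8 this gap was not common. Its nascent minus total difference was 0.45 and 1.71 in the unstimulated cultures of experiments 1 and 2. It was 0.16 and 0.11 at 45 min, and -0.20 and -0.19 at 270 min. Calls over all genes rose with the block as well. They went from 95 higher and 113 lower to 289 and 816 at 45 min, and from 24 and 144 to 112 and 379 at 270 min. With the experiment as a replicate block, Irf8 had the lower nascent response at 45 min (-0.95 ± 0.32, adjusted p = 0.192 without and 0.00614 with the block) and at 270 min (-1.28 ± 0.32, adjusted p = 0.0764 without and 4.82e-05 with it). At 270 min the block also brought calls for Irf1 (-0.79, adjusted p = 0.0161) and Irf4 (-0.98, adjusted p = 0.0391). The response differences of Irf1 and Irf8 depended on which unstimulated culture was left out. Without that of experiment 1 they were -1.21 and -1.57 at 45 min, and -1.36 and -1.90 at 270 min. Without that of experiment 2 they were -0.07 and -0.32 at 45 min, and -0.22 and -0.65 at 270 min. Over all alternatives the adjusted p reached 1 for Irf1 at both times, for Irf4 at 270 min and for Irf8 at 45 min, and 0.522 for Irf8 at 270 min.

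The genes around the members were taken from lists of the pathway. ISGF3 and IRF target genes, a list of antiviral and inflammatory genes, numbered 26 measured, 2 of them (Oasl1 and Usp18) also in the list of inhibitors below. Whether their changes here depended on interferon was not tested. At 270 min 25 of 26 were called higher in nascent RNA, beside 8.87% of all genes, and 25 of 26 in total RNA, beside 7.02%. The median differences were 4.38 and 4.08, beside 0.12 and 0.07 over all genes. The 1 gene not called was Ciita, the class II transactivator, at -0.45 ± 0.29 and -0.68 ± 0.29 (adjusted p = 0.285 and 0.139 by limma). With the experiment as a replicate block, Ciita was called lower in total RNA (adjusted p = 0.0118). The chemokine Cxcl10 rose by 7.02 ± 0.21 in nascent RNA (adjusted p = 1.62e-10) and the GTPase Mx1, which blocks viral ribonucleoproteins, by 5.72 ± 0.23 (adjusted p = 1.77e-09). Of the 2 unstimulated nascent Cxcl10 arrays, 1 was under background.

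Some of these targets had risen by 45 min. In nascent RNA 8 of 26 were called higher, Cxcl10 by 5.60 ± 0.21 from that same unstimulated level and the chemokine Ccl5 by 2.11 ± 0.35, and in total RNA 3, Cxcl10, Gbp5 and Gbp3. Of all genes, 3.05% were called higher in nascent and 0.662% in total RNA at 45 min. The nascent median of the targets was 0.21, beside 0.11 over all genes. The nascent count was 5 when either the 45 min array of experiment 2 or the unstimulated array of experiment 1 was left out, and in the latter case 2 were called lower. With the replicate block 1 was called lower. Gbp3 and Gbp5 belong to a family of similar sequences.

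Of 17 measured genes of the TLR4, TRIF and IRF3 route, nascent RNA had 3 called higher and 1 lower at 45 min, and 8 higher and 1 lower at 270 min. Over all genes the nascent shares were 3.05% higher and 5.88% lower at 45 min, and 8.87% higher and 14.2% lower at 270 min. The co-receptor Cd14 rose at 45 min by 2.62 ± 0.36 (adjusted p = 0.000521). Tlr4 itself fell at 45 min by 1.37 (SE 0.21, adjusted p = 0.00107) and was at -1.37 ± 0.21 at 270 min (adjusted p = 0.000245). Azi2 and Tank, adaptors of TBK1, rose at 270 min by 2.05 ± 0.24 and 1.54 ± 0.25 (adjusted p = 2.8e-05 and 0.000455). In total RNA none was called at 45 min by limma, with 2 at an unadjusted p under 0.05, and 7 were higher and 1 lower at 270 min. That stood beside 0.682% of all genes called in total RNA at 45 min, with 3.05% at an unadjusted p under 0.05. At 270 min 19.0% of all genes were called in total RNA, 7.02% higher and the rest lower. With the experiment as a replicate block, Cd14 was called higher in total RNA at 45 min (1.47 ± 0.36, adjusted p = 0.147 without and 0.0115 with the block). The nascent count of higher genes was 5 at 45 min with the experiment as a replicate block, 1 at 45 min without the 45 min array of experiment 1, and 5 at 270 min without the 270 min array of experiment 1.

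Other routes to Ifnb1, the sensors of cytosolic RNA and DNA and of endosomal nucleic acids, had 11 genes measured. At 270 min 7 were called higher and 2 lower in nascent RNA, and as many in total RNA, with medians of 2.29 and 1.96. Of all genes, 8.87% were higher and 14.2% lower in nascent RNA. In total RNA 19.0% were called, 7.02% higher and the rest lower. The RNA sensors Ifih1 (MDA5) and Ddx58 (RIG-I) rose in nascent RNA by 3.85 ± 0.24 and 3.36 ± 0.23 (adjusted p = 6.59e-08 and 1.86e-07). The 2 that fell were Mavs, the adaptor of both sensors (-0.72 ± 0.23, adjusted p = 0.0394), and Sting1, the adaptor of DNA sensing (-1.26 ± 0.29, adjusted p = 0.00572). The number lower in nascent RNA was 0 without the unstimulated or the 270 min array of experiment 2, and 1 without the 270 min array of experiment 1 or with quantile scaling. In total RNA it was 0 without the 270 min array of experiment 2 or with the unstimulated one of experiment 1 left out, and 1 without the unstimulated array of experiment 2, with either scaling, or in total RNA arrays alone.

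Below interferon, 11 genes of the interferon receptors and the JAK-STAT pathway were measured. At 270 min nascent RNA had 3 called higher and 2 lower, beside 8.87% of all genes higher and 14.2% lower. Total RNA had 3 higher and 1 lower, beside 19.0% of all genes called, 7.02% higher and the rest lower. The list medians were 0.11 in nascent and 0.32 in total RNA, beside 0.12 and 0.07 over all genes. The kinase gene Jak2 rose in nascent RNA by 3.47 ± 0.20 (adjusted p = 4.02e-08), Stat2, the partner of IRF9 in ISGF3, by 2.49 ± 0.24 (adjusted p = 4.71e-06), and the type I receptor gene Ifnar1 by 0.93 ± 0.19 (adjusted p = 0.003). Ifngr1, a chain of the receptor for interferon gamma, fell by 1.05 (SE 0.25, adjusted p = 0.00812). The number lower in nascent RNA was 0 without the unstimulated or the 270 min array of experiment 2 and 1 without the 270 min array of experiment 1. In total RNA it was 0 without the 270 min array of experiment 2. The number higher in total RNA was 5 with the experiment as a replicate block.

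Of 17 measured inhibitors of interferon induction or signalling, at 270 min nascent RNA had 12 called higher and 2 lower, and total RNA 10 higher and 1 lower. The shares of all genes were 8.87% higher and 14.2% lower in nascent RNA. They were 19.0% called in total RNA, 7.02% higher and the rest lower. Usp18, which blocks the type I interferon receptor, rose in nascent RNA by 3.73 ± 0.37 (adjusted p = 5.99e-06). Socs3, an inhibitor of cytokine signalling, had risen at 45 min, by 4.04 ± 0.28 in nascent and 3.44 ± 0.28 in total RNA (adjusted p = 1.11e-06 and 1.18e-05), as had Tnfaip3 (A20), which restrains NF-kB signalling, by 2.43 ± 0.19 and 3.70 ± 0.19 (adjusted p = 3.83e-06 and 9.46e-08). The 2 that fell in nascent RNA were Irf2bp2 (-1.56 ± 0.25) and Irf2bpl (-1.56 ± 0.33), and Irf2bp2, which binds IRF2, fell in total RNA as well (-1.80 ± 0.25). The nascent number lower was 1 without the unstimulated or the 270 min array of experiment 2, and the number lower in total RNA was 2 with the block by experiment and in total RNA arrays alone.

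**Figure D4:**
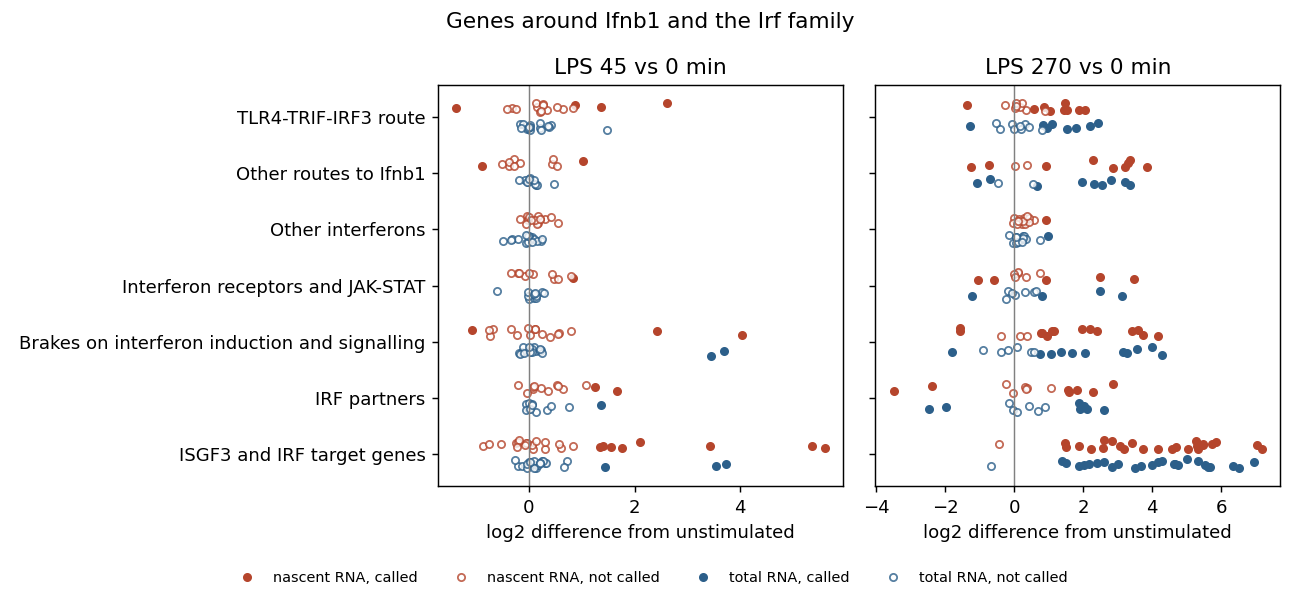
Each point is 1 gene of a pathway list, placed on the x axis by its log2 difference from unstimulated cells at 45 min (left) or 270 min (right). Rows are the lists, with a small vertical scatter for legibility, red for nascent and blue for total RNA, filled where called and open where not. At 270 min 25 of 26 ISGF3 and IRF target genes are filled in each kind of RNA, and among other interferons 1 is filled in each.

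For each member other than Irf3, the genes most like it in level over the 12 arrays were taken by Pearson's r among about 6090 genes that reached the median level and spanned at least 1 log2 unit. Arrays of a time or experiment share culture and scaling, so r describes these 12 arrays only. Irf1 was most like Nfkbia, which encodes the NF-kB inhibitor IkBα (r = 0.99), then Tnfaip3 (0.98) and the inflammasome sensor gene Nlrp3 (0.97). Ifnb1 was most like Prr14 (0.96), Tcim (0.95) and the decoy receptor gene Il1r2 (0.94). It was above background only on the 2 nascent 45 min arrays, so these r values rest mainly on those arrays. The nascent mean of Il1r2 went from 5.56 to 6.70 at 45 min and to 5.29 at 270 min. The background level of the nascent 45 min arrays was 6.48 and 6.76, and the other group means of Il1r2 lay under background. For Irf7 they were Crybg1, Ppa1 and Mthfd2 (0.99, 0.99 and 0.98), and for Irf9 Traf2, Rin2 and Dse (0.98, 0.97 and 0.96). Irf2 was followed by Gm6034, Nr3c1 (the glucocorticoid receptor gene) and Rbpj (0.98 each), and Irf4 by Ctdp1, Ubn1 and Sh3pxd2b (0.98, 0.97 and 0.97). Irf8 and Irf5 had looser neighbours, Zfp503, Trim56 and Inka1 at 0.87, 0.85 and 0.85, and Ran, Dse and Slc16a10 at 0.81, 0.78 and 0.77.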

How the data were processed

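The data are 12 arrays of the type Affymetrix Mouse Gene ST 1.0, 2 in each of 6 groups of nascent or total RNA from macrophages. Per the submitters' processing notes, the deposited intensities were made by the authors with RMA in the Affymetrix Expression Console. The values are on a linear scale, and log2 was taken here. No version of the software is given in the sources used here, nor whether the 12 arrays went through 1 normalisation. RMA compresses changes of dim genes, and every change is measured against the rest of an array.

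The platform annotation paired 21789 of 35557 probe sets with 1 symbol and 1621 with several, and did not list 12147. One probe set per symbol, the one with the highest mean log2 value, gave 19938 genes, all of which were tested with no filter on level. RefSeq gene identifiers (GRCm38.p6) matched 21698 probe sets and changed 0 symbols. The members and the gene lists were chosen with earlier results of these data known. All 9 members are named. From each list up to 4 called genes with the largest change in a comparison may be named, and any other list gene that is named was chosen after its values were seen.

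With limma 3.58.1 in R 4.3.3, 6 group means were estimated from the 12 arrays, with a variance prior that followed the level (6 residual and 7.4 prior degrees of freedom). Nascent was set against total RNA through the 6 differences within a culture, with 1 mean for each time (3 residual and 16.5 prior degrees of freedom). The Benjamini-Hochberg adjustment ran over all 19938 genes, with calls at an adjusted p under 0.05. The fit was tested on simulated data. Tables and figures used Python 3.11.15, pandas 2.3.3, numpy 2.4.6 and matplotlib 3.10.9. Only 2 arrays per group limit the precision, and the depth of a count has no counterpart on an array.

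The replicate numbers name 2 independent experiments. Deviations of same-numbered arrays from their group means correlated at -0.295 to 0.645 across genes, and the pairs with the unstimulated nascent arrays at -0.295 to 0.025. For nascent and total arrays of the same culture the value was -0.055 at 0 min, 0.175 at 45 min and 0.419 at 270 min. The matching of these arrays thus did not show in the deviations at 0 min. The pairing comes from the experiments named in the series' design. The alternatives were quantile scaling, centring on the median, leaving out dim genes, the mean of all probe sets of a symbol, no trend, the experiment as a replicate block, arrays of 1 fraction only, 12 arrays as independent samples, and leaving out each array or culture. The other Irf1 probe set was added after the data were seen. The background level, described in the report, was also chosen after the data were seen.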

Additional observations from a re-analysis of the deposited data

Results flagged for a closer look

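The response of Ifnb1 to 45 min of LPS differed between nascent and total RNA by 1.63 on the log2 scale. The difference itself was tested, by limma on the within-culture differences (adjusted p = 0.00511). It had the same sign in both experiments, 1.91 in experiment 1 and 1.35 in experiment 2. Both groups of total RNA arrays lay under the background level. Without the 45 min culture of experiment 1 the value was 1.47 and without that of experiment 2 it was 1.79, and neither was called. Those 2 fits called hardly any gene at all. Over all alternatives the limma adjusted p ranged from 7.62e-06 to 0.264.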

How the results depend on the processing

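No called difference of a member changed sign under any alternative run, leaving out an array included. Some differences that were not called did, such as that of nascent Irf7 at 45 min, which ran from -0.45 to 1.03 with an array left out. With the experiment as a replicate block, 2 of the 9 members instead of 1 had a called difference in response at 45 min, and 3 instead of 0 at 270 min. The block moved 7 single values past the threshold, given beside those results, and changed no other member's call. With the 12 arrays as independent samples, 2 members instead of 4 were called for nascent over total RNA at 270 min, a fit that ignores the shared culture.

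Leaving out an array or culture in turn, the number of members called was 2 to 3 for nascent RNA at 45 min against 0 min, 4 to 6 at 270 against 0 min and 4 to 5 at 270 against 45 min. It was 1 in each case for total RNA at 45 min against 0 min, 3 to 5 at 270 against 0 min and 2 to 4 at 270 against 45 min. For nascent over total RNA it was 3 to 4 at 0 min, 2 to 3 at 45 min and 0 to 1 at 270 min. For the difference in response it was 0 to 3 at 45 min and 0 to 2 at 270 min. With 1 array or culture left in a group, that lone value is assumed to vary like the other groups.

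Of 342 single-member values with 1 array or culture left out, 126 were calls as reported, of which 39 were lost, and 10 of the other 216 became calls. Of 99 values, 38 were calls as reported. Quantile scaling lost 1 of these and added 2, centring on the median lost 2 and added 0, and leaving out dim genes lost 0 and added 2. The mean of all probe sets of a symbol and the fit without a trend changed no call. Fitting the arrays of 1 fraction only lost 2 of 24 calls and added 1, and the other Irf1 probe set lost 2 of 7. The cause of these changes was not tested.

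Scaling moved the share of higher among all called genes by over 10 percentage points in 2 comparisons. The difference in response at 45 min had 95 genes higher and 113 lower as reported, 42 and 15 with quantile scaling, and 44 and 81 with centring on the median. Nascent over total RNA at 45 min had 2226 higher and 2834 lower as reported, and 1544 and 3010 with centring on the median. The values of Ifnb1 in total RNA, and of Irf4 in total RNA at 270 min, are limited by their signal, which lay under the background level.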

Other observations

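The factors that bind DNA beside IRF proteins were also measured. Of 13 such partners, 2 were called higher in nascent RNA at 45 min, beside 3.05% of all genes called higher there and 0.662% in total RNA. The 2 were the NF-kB subunit genes Rela (1.67 ± 0.26, adjusted p = 0.00116) and Rel (1.26 ± 0.22, adjusted p = 0.0027). With the experiment as a replicate block 4 partners were called higher. In total RNA Rel was the 1 called (1.36 ± 0.22, adjusted p = 0.00561), and none was called when the unstimulated array of experiment 1, or that of 45 min in experiment 2, was left out. At 270 min 5 were called higher and 2 lower in nascent RNA, and as many in total RNA. All genes gave 8.87% higher and 14.2% lower in nascent RNA. In total RNA they gave 19.0% called, 7.02% higher and the rest lower. Batf2, a basic leucine zipper factor that pairs with IRF proteins, rose by 2.86 ± 0.20 in nascent RNA (adjusted p = 2.09e-07), and Ikzf1 (Ikaros) by 2.28 ± 0.21 (adjusted p = 2.52e-06). Jun, an AP-1 subunit, fell by 3.49 (SE 0.38, adjusted p = 1.36e-05) , and Fli1, which encodes an Ets factor, fell by 2.37 (SE 0.21, adjusted p = 1.57e-06).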
